A study of Mus musculus with 4 samples.

Results

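The mast cell and basophil markers are 10 genes chosen by name, Cpa3, Tpsb2, Tpsab1, Cma1, Mcpt4, Kit, Fcer1a, Ms4a2, Hdc and Gata2, and all 10 were found by symbol among the 23735 loci of the deposited table. Their levels were read in cultured peritoneal macrophages as a sign of which other cells the cultures held. RNA was sequenced from macrophages of C57BL/6 mice 6 weeks old that had been given 3% thioglycolate, a sterile irritant, 3 days before collection. The Ch25h_WT group carried the genotype ApoE-/-/Ch25h+/+ and the Ch25h_KO group ApoE-/-/Ch25h-/-, so both groups were labelled as lacking apolipoprotein E, and they differed by label in Ch25h, the gene of cholesterol 25-hydroxylase. Each group had 2 libraries. The labels give 12 mice per group without saying which mice went into which library. Every p-value therefore measures only the spread between duplicate libraries, and some of that spread may be technical.

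Mast cells are tissue cells filled with granules of histamine, heparin and serine proteases, and the peritoneal cavity is a classical site of the connective tissue type in mice. They depend on the receptor tyrosine kinase Kit and carry the high-affinity IgE receptor, whose crosslinking by antigen releases the granules. Basophils are blood granulocytes that share the IgE receptor and histamine with mast cells but have few of their proteases, and the mouse basophil protease is Mcpt8. The transcription factor Gata2 is needed for both lineages.

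The values were taken as FPKM from their range, decimals and locus identifiers, since the header names no unit. FPKM are fragments scaled by transcript length and by the mapped fragments of the library. On that reading, levels of different genes can be compared per length. The implied depth, recovered from the steps between low values, was 9550000 to 12400000 fragments per library. As a check of the labels, Ch25h was 63.3 and 65.3 FPKM in Ch25h_WT against 4.25 and 5.53 FPKM in Ch25h_KO. Apoe was 614 and 610 FPKM in Ch25h_WT and 3683 and 3373 FPKM in Ch25h_KO although all 4 libraries were labelled ApoE-/-, which FPKM of a whole locus cannot check. The labelled cell type had its defining markers at high levels, with Emr1, the macrophage surface adhesion receptor, at 381 to 425 FPKM and Cd68 at 469 to 492 FPKM over the 4 libraries.

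The sequences just before the start sites of 4 members are shown because these genes share a marker list but not a direction of difference between the groups. AGATAA and TGATAA are among the letters that GATA factors bind, and the capitals mark each match to these motifs, read on both strands. Other forms were not searched, such as TGATAG, which stands in the Hdc sequence. The sequences are the 250 bases before the RefSeq start in GRCm38.p6, a later build than the mm9 of the deposited values, and each is written on the strand of its gene. Cpa3 lies on the minus strand at chr3:20242182-20242431, Mcpt4 on the minus strand at chr14:56062311-56062560, Fcer1a on the minus strand at chr1:173227230-173227479 and Hdc on the minus strand at chr2:126618679-126618928. In the Fcer1a sequence a match to the E-box letters CATGTG, which basic helix-loop-helix factors such as Mitf can bind, is also in capitals.
Cpa3: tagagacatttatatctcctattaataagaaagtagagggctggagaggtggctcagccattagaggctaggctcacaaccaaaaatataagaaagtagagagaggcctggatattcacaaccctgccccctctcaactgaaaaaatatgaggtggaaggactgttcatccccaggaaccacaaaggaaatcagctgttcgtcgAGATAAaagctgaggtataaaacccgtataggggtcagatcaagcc
Mcpt4: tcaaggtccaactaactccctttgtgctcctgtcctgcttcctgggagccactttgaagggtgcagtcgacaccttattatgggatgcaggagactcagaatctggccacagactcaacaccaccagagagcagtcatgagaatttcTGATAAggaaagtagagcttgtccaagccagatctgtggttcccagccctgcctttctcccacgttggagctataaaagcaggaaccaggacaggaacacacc
Fcer1a: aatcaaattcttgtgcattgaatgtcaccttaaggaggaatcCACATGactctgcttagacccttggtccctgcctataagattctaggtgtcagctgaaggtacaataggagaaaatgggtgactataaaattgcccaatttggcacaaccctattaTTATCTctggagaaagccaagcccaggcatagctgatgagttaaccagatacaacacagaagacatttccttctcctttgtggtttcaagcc
Hdc: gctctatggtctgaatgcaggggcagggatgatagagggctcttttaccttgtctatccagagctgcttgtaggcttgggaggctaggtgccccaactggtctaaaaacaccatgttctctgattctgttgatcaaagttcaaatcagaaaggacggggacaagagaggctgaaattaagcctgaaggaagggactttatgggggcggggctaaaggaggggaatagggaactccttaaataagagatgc

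Cpa3 had 1 GATA match 46 to 41 bases before its start, Mcpt4 had 1 and Fcer1a had 1. Hdc had 0 matches to the searched letters AGATAA and TGATAA within this window. Its sequence holds TGATAG, a form that was not searched, so Hdc is not shown to lack a GATA site. Of the 8 members with a RefSeq promoter entry, 4 held a GATA match (the last of them Ms4a2, with 3) and 1 held an E-box match to CATGTG or CACGTG. Some genes have more than 1 entry. Counted by entry, the members had a GATA match in 4 of 10 and an E-box match in 1 of 10, and over all 32851 entries of the same length the shares were 16.6% and 17.6%. A match is a stretch of letters and no evidence of binding. GATA matches stood before genes that were lower in Ch25h_KO (Cpa3, Mcpt4) and before Fcer1a, which overlapped between the groups. Cma1 and Kit were also lower in Ch25h_KO and had 0 matches to the searched letters, as did Gata2, which overlapped. The Cma1 sequence holds AGATAG on the other strand, a form that was not searched. Cma1 is therefore not shown to lack a GATA site. Ms4a2, with its 3 matches, was lower in both Ch25h_KO libraries but near 0 FPKM. Tpsb2 and Tpsab1 had no entry. Whether the matches go with the direction of difference was not tested.

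All 10 members had the same order of level in all 4 libraries. From high to low it was Hdc, Cma1, Tpsb2, Mcpt4, Cpa3, Tpsab1, Fcer1a, Kit, Gata2 and Ms4a2. The levels spanned from 227 FPKM for Hdc in Ch25h_KO replicate 2 to a listed 0 for Ms4a2 in Ch25h_KO replicate 1. Hdc ranked 420 and Cma1 1031 by mean FPKM among the 23735 loci. Neighbours close in level were Tpsab1 and Fcer1a in the Ch25h_KO libraries, at 9.17 ± 0.156 and 7.80 ± 1.41 FPKM (SD, n = 2 libraries), where the gap was smaller than the SD of Fcer1a.

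**Figure D1:**
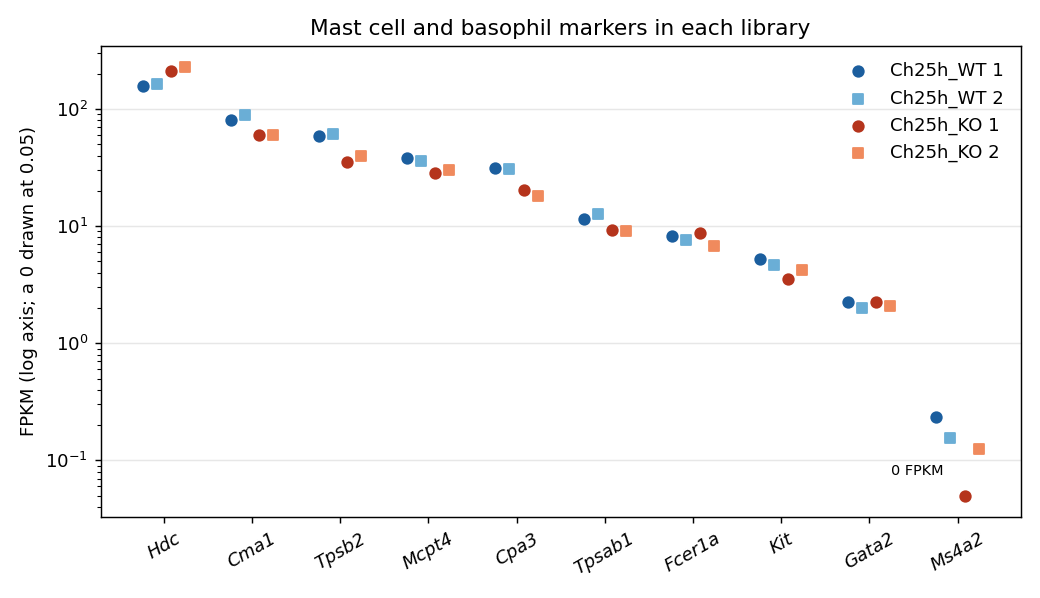
FPKM of the 10 markers (log axis) in each of the 4 libraries, with genes ordered by mean level and 1 point per library. Both Ch25h_KO points lie below both Ch25h_WT points for the 5 proteases and Kit, and above them for Hdc. For Fcer1a they lie on both sides of the Ch25h_WT points, and for Gata2 between them. The Ms4a2 value of 0 is drawn at 0.05.

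The proteases of the secretory granule were lower in both Ch25h_KO libraries than in both Ch25h_WT libraries. Cpa3, mast cell carboxypeptidase A, was 31.7 and 31.0 FPKM in Ch25h_WT and 20.2 and 17.9 FPKM in Ch25h_KO. The groups were apart, and the Ch25h_KO mean was 0.608 of the Ch25h_WT mean. The difference on the log2(FPKM + 1) scale, which understates the change of low genes, was -0.69 (SE 0.074), and it did not pass over all 10074 tested loci (limma adjusted p = 0.062).

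Tpsb2, the tryptase also called Mcpt6, was 58.7 and 61.2 FPKM in Ch25h_WT and 35.4 and 39.5 FPKM in Ch25h_KO. These groups were also apart, at a log2 difference of -0.67 (SE 0.074, limma adjusted p = 0.066). Tpsab1, the neighbouring tryptase also called Mcpt7, was 11.5 and 12.7 FPKM against 9.28 and 9.06 FPKM. It was lower by a smaller ratio, 0.757 of the Ch25h_WT mean against 0.624 for Tpsb2. The tryptases are close relatives, and reads could have been split between them by the counting. Their summed level was 70.2 and 74.0 FPKM in Ch25h_WT and 44.7 and 48.5 FPKM in Ch25h_KO, a log2 difference of -0.62 (SE 0.068, limma adjusted p = 0.065).

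The chymases gave the same direction. Cma1, the chymase also called Mcpt5, was 81.1 and 88.4 FPKM in Ch25h_WT and 59.7 and 59.9 FPKM in Ch25h_KO, with a log2 difference of -0.50 (SE 0.065, limma adjusted p = 0.078). Mcpt4, the other chymase of connective tissue mast cells, was 38.2 and 35.8 FPKM against 28.6 and 30.2 FPKM, at a log2 difference of -0.32 (SE 0.064, limma adjusted p = 0.112). Neither overlapped between the groups. The 5 proteases together summed to 221 and 229 FPKM in Ch25h_WT and to 153 and 157 FPKM in Ch25h_KO, so the Ch25h_KO mean was 0.688 of the Ch25h_WT mean. In bulk RNA, fewer mast cells and less protease RNA per mast cell cannot be told apart.

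Among the receptors, Kit, which binds stem cell factor, was 5.22 and 4.66 FPKM in Ch25h_WT and 3.56 and 4.22 FPKM in Ch25h_KO. The groups were apart by a narrow margin, with a log2 difference of -0.28 (95% interval -0.53 to -0.04, limma adjusted p = 0.202). Fcer1a, the IgE-binding chain of the IgE receptor, was 8.21 and 7.64 FPKM in Ch25h_WT and 8.80 and 6.81 FPKM in Ch25h_KO. The Ch25h_KO libraries stood on both sides of the Ch25h_WT libraries. The log2 difference was -0.03 with a 95% interval of -0.35 to 0.29 (limma adjusted p = 0.918), which is wide enough to hold the difference seen for Kit.

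Ms4a2, the beta chain of the same receptor, was close to absent. It was 0.236 and 0.155 FPKM in Ch25h_WT and 0 and 0.126 FPKM in Ch25h_KO, which corresponds to about 7, 4, 0 and 3 fragments by transcript length and implied depth. It was below the filter of a mean of 1 FPKM and was not tested, and no fold is given. Fcer1g, the gamma chain that macrophages also use for IgG receptors, was 1015 and 1026 FPKM in Ch25h_WT and 1251 and 1215 FPKM in Ch25h_KO (limma adjusted p = 0.111). The chains of the IgE receptor thus ranged over levels from near 0 for Ms4a2 to 1251 FPKM for Fcer1g in these cultures, with Fcer1a at 6.81 to 8.80 FPKM.

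Gata2 was 2.25 and 1.98 FPKM in Ch25h_WT and 2.24 and 2.09 FPKM in Ch25h_KO. The groups overlapped, with a log2 difference of 0.02 (95% interval -0.16 to 0.20, limma adjusted p = 0.873). That interval does not reach the estimates of the proteases, of which the smallest in size was that of Mcpt4 at -0.32. The difference between Gata2 and the proteases was not tested over all loci.

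Hdc (histidine decarboxylase), the enzyme that forms histamine, is found in activated macrophages and neutrophils as well as in mast cells, and it stood on the other side. It was 158 and 164 FPKM in Ch25h_WT and 213 and 227 FPKM in Ch25h_KO. The groups were apart with Ch25h_KO higher, at 1.37 times the Ch25h_WT mean and a log2 difference of 0.45 (SE 0.062, limma adjusted p = 0.078). Within a library, the ratio of Hdc to Cpa3 was 4.98 and 5.28 in Ch25h_WT and 10.5 and 12.7 in Ch25h_KO. The ratios did not overlap (exact permutation test, two-sided, p = 0.333, the smallest that 2 against 2 libraries allow).

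**Figure D2:**
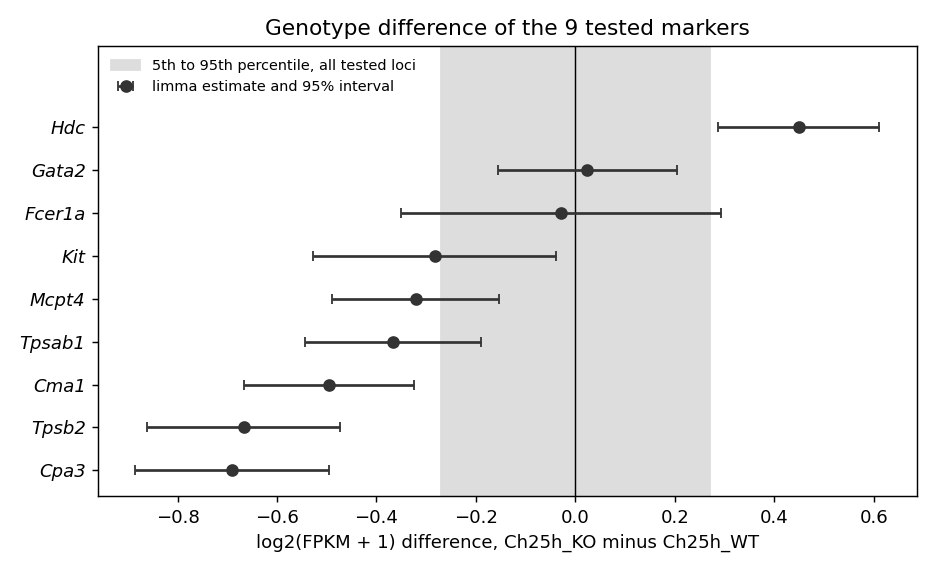
Log2(FPKM + 1) difference of the 9 tested markers, Ch25h_KO minus Ch25h_WT, with limma's 95% intervals and a grey band from the 5th to the 95th percentile of all tested loci (-0.27 to 0.27). The 5 proteases and Kit have estimates below the band, Hdc is above it, and Fcer1a and Gata2 are close to 0.

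Of the 9 members that passed the filter, 0 passed limma at an adjusted p under 0.05, where 0.437% of all 10074 tested loci did. At an unadjusted limma p under 0.05, 6 were lower and 1 was higher in Ch25h_KO. Over all tested loci the shares were 11.5% lower and 9.38% higher. Both Ch25h_KO libraries lay below both Ch25h_WT libraries for 6 of the 9 and above them for 1, against 30.3% and 23.4% of all tested loci. The median log2 difference was -0.32 for the 9 members and -0.01 for all tested loci.

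These calls changed with the model of the spread and with the filter. When limma was run with its trend and robust settings, 6 members passed at adjusted p under 0.05 (Cpa3, Tpsb2, Tpsab1, Cma1 and Mcpt4 lower, Hdc higher), where 7.80% of all tested loci passed. When the filter was raised to 5 FPKM, which left 7221 loci, 4 members passed (Cpa3, Tpsb2 and Cma1 lower, Hdc higher), where 2.42% of loci did.

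The members were then compared with each other within each library, since a ratio inside a library does not depend on its scaling. The ratio of Tpsb2 to Cpa3 was 1.85 and 1.98 in Ch25h_WT and 1.75 and 2.2 in Ch25h_KO, and the groups overlapped. The ratio of Cma1 to Cpa3 was 2.56 and 2.85 against 2.96 and 3.34. Fcer1a to Cpa3 was 0.259 and 0.247 against 0.436 and 0.379, and Gata2 to Cpa3 was 0.0711 and 0.0640 against 0.111 and 0.117. Mcpt4 to Cpa3 was 1.21 and 1.16 against 1.42 and 1.69, Tpsab1 to Cpa3 0.364 and 0.411 against 0.460 and 0.505, and Kit to Cpa3 0.165 and 0.150 against 0.176 and 0.235. Of the 8 ratios to Cpa3, 7 were thus higher in both Ch25h_KO libraries, the exception being that of Tpsb2. Cpa3 was the member with the lowest estimate (-0.69), below the 5th percentile of all tested loci (-0.27). The ratio of nearly any gene to Cpa3 therefore leans higher in Ch25h_KO, and the count follows largely from this choice. The share over all loci was not computed. With 2 libraries per group, none of these ratios could reach an exact permutation p below 0.333.

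**Figure D3:**
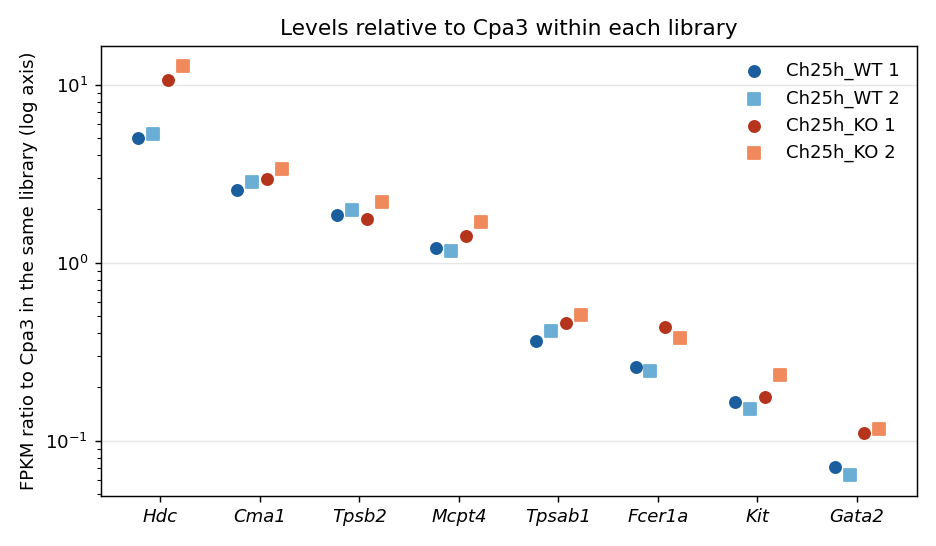
Ratio of the FPKM of 8 members to the FPKM of Cpa3 in the same library (log axis), 1 point per library. The Tpsb2 ratios of the groups overlap, the Hdc ratios are 4.98 and 5.28 in Ch25h_WT and 10.5 and 12.7 in Ch25h_KO, and the other 6 ratios are also higher in both Ch25h_KO libraries. Cpa3 has the lowest estimate of the members, so ratios to it lean higher in Ch25h_KO.

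Further mast cell genes, a list of 15 drawn up beside the members, were mostly low, and their estimates lay on the lower side. Of its 9 tested genes, 0 passed limma at an adjusted p under 0.05, 7 were lower and 0 higher at an unadjusted p under 0.05, and the median log2 difference was -0.34. Over all tested loci, 0.437% passed with adjustment, and 11.5% were lower and 9.38% higher without it. Tph1, the tryptophan hydroxylase that starts serotonin synthesis, was 20.3 and 16.8 FPKM in Ch25h_WT and 9.96 and 10.6 FPKM in Ch25h_KO (log2 difference -0.79, SE 0.10, limma adjusted p = 0.078). Maob, a monoamine oxidase, was 1.34 and 1.51 FPKM against 0.870 and 0.931 FPKM (limma adjusted p = 0.108). Estimates on the higher side numbered 0 of 9, where the median over all tested loci was -0.01. Below the filter, Gata1, the other GATA factor of mast cells, was 0.381 and 0.318 FPKM against 0.103 and 0.165 FPKM.

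Other genes of this list were named after their values were seen. Slc18a2, which loads monoamines into vesicles, was 1.72 and 1.70 FPKM in Ch25h_WT and 0.971 and 1.32 FPKM in Ch25h_KO. Il1rl1, the receptor of interleukin 33, was 9.26 and 9.21 FPKM against 7.45 and 6.34 FPKM. Both genes were apart between the groups with Ch25h_KO lower, as were 30.3% of all tested loci. Neither passed limma over all loci (adjusted p = 0.161 and 0.124). Mrgprb2, a receptor through which basic secretagogues activate mast cells, was at 0.280 to 0.346 FPKM and overlapped, and Enpp3 was listed at 0 in all 4 libraries.

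The genes that lie beside the member proteases were compared by cluster. In the tryptase cluster, the transmembrane tryptase Tpsg1 was 1.42 and 1.60 FPKM in Ch25h_WT and 0.603 and 0.829 FPKM in Ch25h_KO (limma adjusted p = 0.097). Prss34, a protease of basophils and mucosal mast cells, was 2.27 and 2.04 FPKM against 1.46 and 1.57 FPKM (limma adjusted p = 0.111). These were the 2 tested genes of 8 in that list, and both had the direction of Tpsb2. In the chymase and granzyme cluster, Mcpt1 and Mcpt2, proteases of mucosal mast cells, and Mcpt9 were listed at 0 in all libraries, and Ctsg was at 0.117 to 0.540 FPKM. The only tested gene there, Gzmb, was 1.90 and 0.667 FPKM against 1.37 and 1.46 FPKM and overlapped.

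Genes of the basophil-biased list were at mixed levels, from near 0 for Mcpt8 to 19.0 FPKM for Il3ra. Cd200r4 was 9.13 and 8.23 FPKM in Ch25h_WT and 7.64 and 7.74 FPKM in Ch25h_KO (limma adjusted p = 0.286). Mcpt8 was 0.113 FPKM in Ch25h_WT replicate 1 and listed at 0 in the other libraries, and Cd200r3 was at 0.272 to 0.751 FPKM with overlap. Il4, a cytokine of basophils, mast cells and T cells, was 1.87 and 1.61 FPKM in Ch25h_WT and 0.228 and 0.953 FPKM in Ch25h_KO (limma adjusted p = 0.165). Il3ra, a receptor chain that macrophages express too, was 16.2 and 14.2 FPKM against 19.0 and 16.8 FPKM (limma adjusted p = 0.285). Of 4 tested genes in this list of 8, 0 passed at an adjusted limma p under 0.05, and 2 were lower and 0 higher at an unadjusted p under 0.05. Of all tested loci, 0.437% passed with adjustment, and 11.5% were lower and 9.38% higher without it.

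Genes of the pathways that work with the members, which macrophages also express, had medians near 0, and their difference from the proteases was not tested. Of 14 tested genes of IgE receptor signalling, 0 passed limma at an adjusted p under 0.05, 1 was lower and 2 higher at an unadjusted p under 0.05, and the median log2 difference was -0.01. The lower gene was Fcer2a, the low-affinity IgE receptor of B cells, at 2.46 and 2.14 FPKM against 0.477 and 0.932 FPKM (limma adjusted p = 0.091). Of 15 tested granule and release genes, 0 passed with adjustment, and the median was 0.00. Without adjustment 4 were lower (Lyst, Snap23, Vamp8 and Rab27a) and 1 was higher. For both lists, the shares over all tested loci were 11.5% lower and 9.38% higher without adjustment, and 0.437% with it. Srgn, the proteoglycan core to which mast cell proteases bind, was 1441 and 1367 FPKM in Ch25h_WT and 1765 and 1631 FPKM in Ch25h_KO (limma adjusted p = 0.140). Lyst, which controls granule size, was 10.2 and 10.1 FPKM against 7.46 and 7.91 FPKM (log2 difference -0.36, limma adjusted p = 0.097).

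Growth signals, histamine handling and lipid mediators were read in the same way. Of 8 tested genes of mast cell growth signals, 0 passed limma with adjustment, and 0 were lower and 1 higher at an unadjusted p under 0.05. The higher gene was Il33, the alarmin that activates mast cells, at 0.887 and 0.765 FPKM against 1.27 and 1.60 FPKM (limma adjusted p = 0.119). Kitl, the ligand of Kit, was 0.961 and 0.926 FPKM against 1.20 and 0.838 FPKM, with overlap, and Mitf was 11.3 and 9.80 FPKM against 9.99 and 9.28 FPKM, with overlap. None of the 8 genes of histamine handling other than Hdc reached the filter. Among them, the histamine receptor Hrh2 was 0.567 and 0.587 FPKM in Ch25h_WT and 0.169 and 0.253 FPKM in Ch25h_KO, while Hrh1 was 0.704 and 0.729 FPKM against 1.12 and 0.966 FPKM. Of 8 tested lipid mediator genes, 0 passed with adjustment, and 0 were lower and 2 higher without it. These were Ptgs2 (cyclooxygenase 2), at 120 and 108 FPKM against 149 and 143 FPKM, and the prostaglandin D synthase Hpgds, at 0.791 and 0.872 FPKM against 1.19 and 1.42 FPKM. Beside the growth signal and lipid mediator counts, 11.5% of all tested loci were lower and 9.38% higher without adjustment.

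Markers of other cells were set beside the members, and their part in the results was not tested. The neutrophil list was mixed. Its summed level was 72.3 and 83.1 FPKM in Ch25h_WT and 117 and 117 FPKM in Ch25h_KO, and S100a8, which activated macrophages also make, held most of it at 56.3 and 66.6 against 99.0 and 98.7 FPKM (limma adjusted p = 0.078). Among its 9 measured genes, 2 reached the filter, S100a8 and S100a9, both higher at an unadjusted limma p under 0.05. At that threshold 9.38% of all tested loci were higher. Over the whole list 3 genes were higher in both Ch25h_KO libraries and 3 were lower, namely Camp (0.906 and 1.36 against 0.880 and 0.471 FPKM), Cxcr2 (0.507 and 0.665 against 0.492 and 0.428 FPKM) and Mpo. Over all tested loci the shares were 23.4% higher and 30.3% lower, and those among loci below the filter were not computed. The granule genes that define neutrophils were at or near 0, with Ltf at 0 in 3 libraries and 0.147 FPKM in Ch25h_KO replicate 2, Mpo at 0 to 0.0614 FPKM and Elane at 0 to 0.125 FPKM.

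B cells, the other abundant non-macrophage cells of the cavity, were measured with 5 markers that summed to 311 and 312 FPKM in Ch25h_WT and 285 and 299 FPKM in Ch25h_KO. With limma 0 passed at an adjusted p under 0.05, 0 were lower and 1 higher at an unadjusted p under 0.05, and the median log2 difference was -0.11. The higher gene was Blk, a kinase of the B cell receptor, at 16.8 and 17.6 FPKM against 19.5 and 20.4 FPKM. At an unadjusted limma p under 0.05, 11.5% of all tested loci were lower and 9.38% higher. The same shares stand beside the platelet and macrophage counts below. Of the 9 eosinophil genes, Epx, Prg3 and Ear1 were listed at 0 in all libraries, and most of the sum of that list (195 to 216 FPKM) was Alox15, which peritoneal macrophages express. Mesothelial and fibroblast markers were low, summing to 0.649 and 0.892 FPKM in Ch25h_WT and 1.92 and 1.96 FPKM in Ch25h_KO. Of those 8 genes, 5 were higher and 0 lower in both Ch25h_KO libraries, among them Col3a1 at 0.242 and 0.319 against 0.831 and 0.820 FPKM, and none reached the filter. Over all tested loci 23.4% were higher and 30.3% lower in this way, and the shares among loci below the filter were not computed. Some of the 5 rest on very few fragments, such as Wt1 with about 1 and 0 in Ch25h_WT and 2 and 3 in Ch25h_KO. Of the 7 T and NK cell markers 2 were tested, and both overlapped between the groups. Platelet genes summed to 1628 and 1685 FPKM in Ch25h_WT and 2160 and 2032 FPKM in Ch25h_KO. Nearly all of that was Pf4, which macrophages also express, at 1625 and 1681 against 2155 and 2028 FPKM (limma adjusted p = 0.106), while Gp9 and Treml1 were listed at 0 in all libraries. Of 3 tested platelet genes, 0 were lower and 1 higher at an unadjusted limma p under 0.05. Macrophage markers had a median log2 difference of -0.03 over 8 tested genes, of which 6 had lower estimates. The groups were apart for Emr1 (418 and 425 against 381 and 388 FPKM) and Csf1r (306 and 316 against 274 and 291 FPKM), lower in Ch25h_KO, and for Cd14 (5178 and 5288 against 6870 and 6751 FPKM) and Fcgr1, higher in Ch25h_KO. With limma 0 of these passed with adjustment, and 0 were lower and 2 higher at an unadjusted p under 0.05. The 4 lists with the lowest medians were the members, the tryptase cluster, the further mast cell genes and the basophil-biased genes. The tryptase and basophil lists share Prss34, and all of these lists were drawn up with earlier results of these data known.

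**Figure D4:**
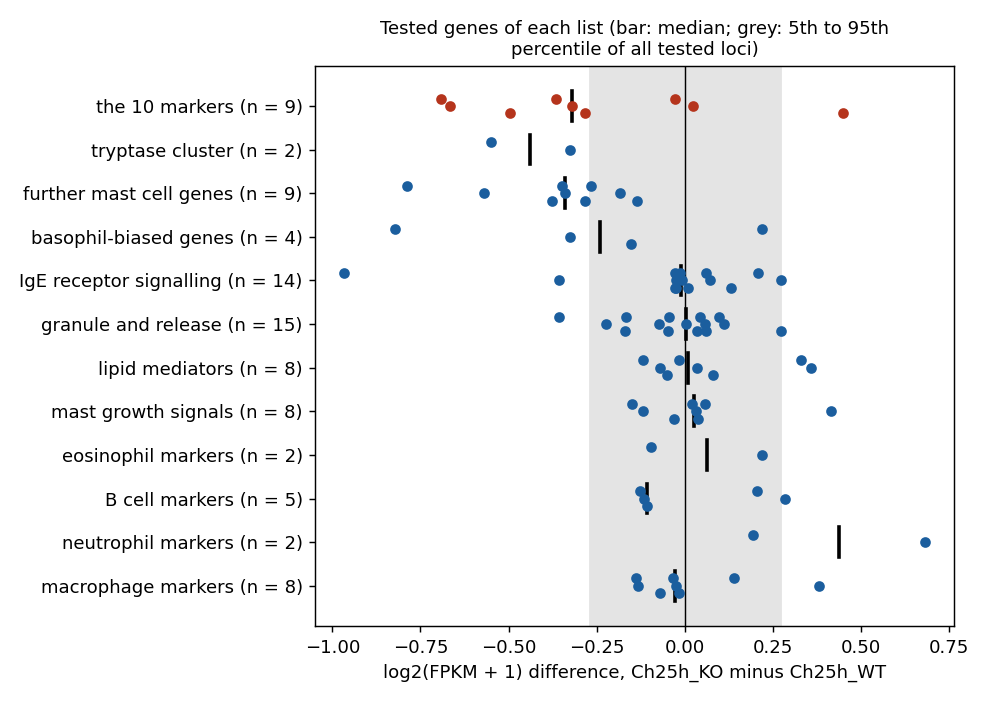
Log2(FPKM + 1) difference, Ch25h_KO minus Ch25h_WT, of each tested gene by list (1 point per gene, bar at the median, n tested genes in brackets); the grey band is the 5th to 95th percentile of all tested loci. The medians of the members (-0.32), the further mast cell genes (-0.34) and the tryptase cluster (-0.44, 2 genes) lie below the band. That of the neutrophil markers (0.44, 2 genes) lies above it. Those of IgE receptor signalling (-0.01) and granule and release genes (0.00) lie near 0.

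The profile of Cpa3 over the 4 libraries was also seen in genes that are not mast cell markers. Candidates were loci that averaged 5 FPKM or more, leaving out members, predicted genes, clone-named loci and short RNAs. These were recognised by symbol, so every symbol starting with Rn was left out too, such as Rnpepl1. Among the candidates the 5 nearest to Cpa3 were Arg1, Pdlim1, Cav1, Pfkl and Retnla. Likeness was the Euclidean distance between log2(FPKM + 1) values centred on each gene's mean, and it was 0.087 for Arg1 and 0.138 for Retnla. The nearest member, Tpsb2, was at 0.233 and Cma1 at 0.252, so these other genes were nearer. They were picked as the nearest of 6859 loci, however, while the members are few. Being nearer than the members therefore decides nothing about the cell type behind the Cpa3 profile. Arg1, the arginase of alternatively activated macrophages, was 920 and 910 FPKM in Ch25h_WT and 595 and 573 FPKM in Ch25h_KO, and it passed the test (limma adjusted p = 0.035). Pdlim1, a cytoskeletal adaptor, was 23.3 and 25.1 FPKM against 16.2 and 14.5 FPKM and did not pass (limma adjusted p = 0.075). Cav1, Pfkl and Retnla, also lower in both Ch25h_KO libraries, passed (limma adjusted p = 0.023, 0.035 and 0.035). All 5 were picked by likeness to Cpa3, so their direction follows from the choice. The profile is mainly a difference between 2 pairs of libraries.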

How the data were processed

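RNA-seq values of 4 libraries of mouse peritoneal macrophages, 2 per genotype, were read from 1 deposited table. Per the submitters' processing notes, the tools were bcl2fastq, TopHat2 2.0.14 and Cufflinks 2.2.1 with the build mm9. The sources used here do not give the annotation, strand or scaling. The values the authors deposited have a range, decimals and locus identifiers that fit FPKM, although the header names no unit, and no count test was run. The 24192 lines were joined by locus into 23735 loci, and 0 sample columns were left out. A symbol missing from the table was looked up among RefSeq synonyms of GRCm38.p6, and this gave Siglecf.

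Of 2274 loci averaging below 0.2 FPKM, 85.9% gave whole numbers of fragments in every library within 0.01 fragments (in proportion for larger counts). Of these, 1627 with a GENCODE transcript length gave the implied depth, which is approximate, and fragment numbers cover counting error only.

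The genotypes were compared by limma 3.58.1 (R 4.3.3) on log2(FPKM + 1), with no other term in the model, over the 10074 loci that averaged 1 FPKM or more. A locus passed at a Benjamini-Hochberg adjusted p under 0.05. The script was tested on simulated data. The named genes are the members, from each list the tested genes with the smallest p (at most 2 higher and 2 lower), the 5 loci nearest to Cpa3, Ch25h and Apoe; further list genes were named after their values were seen. The members, lists and alternatives were chosen with earlier results of these data known. A marker of the planned B cell list is not reported here.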

Additional observations from a re-analysis of the deposited data

How the results depend on the processing

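The counts of calls, the median over the members, the summed tryptases and each tested member were recomputed under 14 alternatives, or 13 for Kit and Gata2, which average under 5 FPKM. The ratios, the other lists and the loci nearest to Cpa3 were not. The proteases, Kit and Hdc kept their direction under every alternative that tested them. Cpa3 ranged from -0.77 to -0.61 and Hdc from 0.40 to 0.50 on the log2 scale, with limma adjusted p from 0.00059 to 0.275 for Cpa3 and from 0.00061 to 0.324 for Hdc. The number of members past an adjusted p of 0.05 was 0 as reported, 1 with scaling to a common total and 1 with upper quartile scaling (Cpa3 in each), 4 among loci of at least 5 FPKM and 6 with limma's trend and robust options. The summed tryptase difference of -0.62 passed in the last 2 of these (limma adjusted p = 0.027 and 0.00036). Over all loci, 44 passed as reported, 24 with a pseudocount of 0.01, 18 with no filter on low values, 175 among loci of at least 5 FPKM and 786 with trend and robust options. Leaving out 1 library, where the lone library of a group is assumed to vary like the other group, gave 13 to 21 loci and 0 members.

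Estimates near 0 changed sign. Fcer1a was 0.02 without Ch25h_WT replicate 1 and 0.14 without Ch25h_KO replicate 2, and lay between -0.19 and 0.14 over the libraries left out in turn. Gata2 was -0.0037 with scaling to a common total, -0.038 without Ch25h_WT replicate 2 and -0.01 without Ch25h_KO replicate 1, and lay between -0.038 and 0.086 over the libraries left out. The cause of these changes was not tested. The median over the members ranged from -0.37 to -0.28, and it was -0.34 without Hdc, an alternative chosen after seeing the data. Scaling moved the median of all tested loci from -0.01 to -0.05 at most. The replicate numbers are not stated to pair the libraries, and same-numbered deviations correlated at 0.012 across loci. With the replicate block, 6 loci and 0 members passed. Levels under about 1 FPKM rest on few fragments, and Ms4a2 rests on at most about 7.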
